A study of Mus musculus with 5 samples.

Results

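The genes described are Zfp36, Zfp36l1, Zfp36l2, Btg1, Btg2, Ier2 and Ier5, 7 early response genes read by 15 of the 45101 probe sets on Affymetrix whole-genome mouse arrays. A probe set is a group of short array probes that together read one transcript. The members were taken by symbol: a probe set counted where the platform annotation gave it a single gene symbol equal to one of the 7. All 15 probe sets had values. The genes, as 1 value each, are 7 of the 18193 genes tested.

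RNA came from bone marrow stem and progenitor cells of C57BL/6 mice, low in lineage markers and isolated by flow cytometry, and was amplified linearly for 5 arrays. The 3 control arrays carry RNA from rtTA mice, which have the doxycycline-dependent transactivator that switches on inducible transgenes. The 2 other arrays carry RNA from MSI2-inducible mice, in which the RNA-binding protein MSI2 can be switched on, and the series title sets the comparison in normal and leukaemic blood formation. The labels give no age, no sex, no promoter or integration site for either transgene, and no dose or length of induction, and they do not say whether the MSI2-inducible mice carry rtTA as well. Sample labels describe cells with Sca1 and Kit (LSK), while the text on the series names a gate with Kit but not Sca1 (LK). Whether the arrays of a group stem from different mice is not labelled, so a p-value here reflects only array-to-array spread, some of which may be technical.

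Zfp36 (tristetraprolin), Zfp36l1 and Zfp36l2 are CCCH zinc finger proteins that bind AU-rich elements in mRNAs and bring in the CCR4-NOT complex, which removes the poly(A) tail and starts decay. Btg1 and Btg2 are antiproliferative proteins that bind the deadenylase of the same complex. Ier2 and Ier5 are short-lived early response proteins that are not decay factors, and Ier5 is known to help activate the heat shock factor HSF1. In blood formation Zfp36l2 is known to be needed for definitive stem cells, and Btg1 and Btg2 are known for holding lymphocytes in quiescence. Transcripts of most of these genes are induced within minutes by mitogens, cytokines and stress, and cell isolation itself can do so.

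RefSeq's table (GRCm38.p6) held promoters for 5 of the 7 genes, Zfp36, Zfp36l1, Btg1, Btg2 and Ier5. The 250 bases before the start are shown for 4 of them, because these are the genes whose MSI2-inducible arrays lay above every control array and because Zfp36l1 ordered the control arrays differently from the other 3. Capitals mark matches, on either strand, to the TATA box TATAAA, the CCAAT box CCAAT, the cAMP response element TGACGTCA and its core TGACG, the EGR site GCGGGGGCG and the CArG box, the serum response element's core. Matches that touch run together.

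Zfp36, chr7:28379229-28379478, minus strand: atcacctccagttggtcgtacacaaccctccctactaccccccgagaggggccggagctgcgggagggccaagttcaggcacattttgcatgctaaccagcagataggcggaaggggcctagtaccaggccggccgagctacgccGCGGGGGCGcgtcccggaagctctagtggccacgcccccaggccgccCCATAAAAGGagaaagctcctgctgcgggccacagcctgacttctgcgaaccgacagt
Zfp36l1, chr12:80113014-80113263, minus strand: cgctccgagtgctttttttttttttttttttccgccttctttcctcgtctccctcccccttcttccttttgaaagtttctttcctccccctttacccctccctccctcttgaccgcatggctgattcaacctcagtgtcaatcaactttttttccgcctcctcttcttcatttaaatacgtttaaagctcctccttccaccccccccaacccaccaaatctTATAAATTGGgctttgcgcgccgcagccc
Btg1, chr10:96616751-96617000, plus strand: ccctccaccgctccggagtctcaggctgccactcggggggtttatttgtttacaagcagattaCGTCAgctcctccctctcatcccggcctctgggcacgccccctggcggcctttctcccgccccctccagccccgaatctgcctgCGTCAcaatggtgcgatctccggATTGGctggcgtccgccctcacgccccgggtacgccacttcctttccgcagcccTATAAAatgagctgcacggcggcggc
Btg2, chr1:134079156-134079405, minus strand: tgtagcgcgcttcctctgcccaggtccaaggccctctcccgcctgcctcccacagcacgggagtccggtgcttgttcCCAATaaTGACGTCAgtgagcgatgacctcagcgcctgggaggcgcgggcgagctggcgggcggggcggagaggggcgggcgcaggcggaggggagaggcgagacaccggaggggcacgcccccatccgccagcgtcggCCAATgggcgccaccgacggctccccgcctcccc

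The promoters differed in what they held. Zfp36 had an EGR site 105 to 97 bases before the start and a CArG box 58 to 49 bases before it. Among 32851 promoters in the table, the same 250 bases held an EGR site in 2.57% and a CArG box in 1.47%. Btg2 had the full cAMP response element 166 to 159 bases before the start, which 1.55% of promoters hold. Btg1 had its core at 2 places, 187 to 183 and 103 to 99 bases before the start, and the core, which is also part of the full element, occurs in 17.8% of promoters. A TATA box stood 26 to 21 bases before the start of Btg1 and 29 to 24 bases before that of Zfp36l1, where it overlaps a CCAAT box match, and 12.4% of promoters hold one. Searched on the same strands and not capitalised, the GC box GGGCGG was in 4 of the 5 promoters (32.7% of all promoters), all but that of Zfp36l1. The AP-1 site TGANTCA was in 1, Zfp36l1 (6.75%), and the NF-kappaB site in 0 of 5 (7.25%). A CCAAT box was in 4 of 5 (33.8%), all but that of Zfp36. A match describes letters in this window and not a bound site.

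Few genes passed the test between the groups. At a limma adjusted p under 0.05, 3 genes passed as higher in MSI2-inducible arrays (0.0165% of genes) and 1 as lower (0.0055%), and no member was among them. Of the members, 3 reached an unadjusted limma p under 0.05, each higher, as did 2.87% of all genes in that direction and 2.77% in the other. Mouse Msi2 itself had a control mean of 11.72 ± 0.04 (SD, n = 3), against 11.22 ± 0.30 (SD, n = 2) with the MSI2 transgene (limma adjusted p 0.883), and the probe set need not read the transgene. The stem cell factor receptor Kit had a control mean of 9.40. T and NK cell markers averaged 4.21 to 4.73 over their list in all 5 arrays, against a median of 5.57 over all probe sets. In that list Nkg7 was bright, with means of 9.44 in control and 9.08 in MSI2-inducible arrays. Mature neutrophil markers averaged 8.02 to 11.03 in the 5 arrays. Ly6a, which encodes Sca1, was not analysed here.

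All 7 members had a higher mean in MSI2-inducible arrays, as did 50.3% of all genes, but 1 of the 7, Zfp36l2, differed by next to nothing. Btg1, Btg2, Zfp36 and Zfp36l1 lay above every control array in both MSI2-inducible arrays, 4 of 7 members against 9.27% of genes. The members, like the gene lists below, were chosen with earlier results of these data known, so such shares are not independent evidence. The median difference of the members was 0.58 on the log2 scale, and that of all genes was 0.00. Differences are MSI2-inducible minus control, in log2 intensity, with each gene read by its brightest probe set. None passed the test, and adjusted p-values of the members lay between 0.870 and 0.999.

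**Figure D1:**
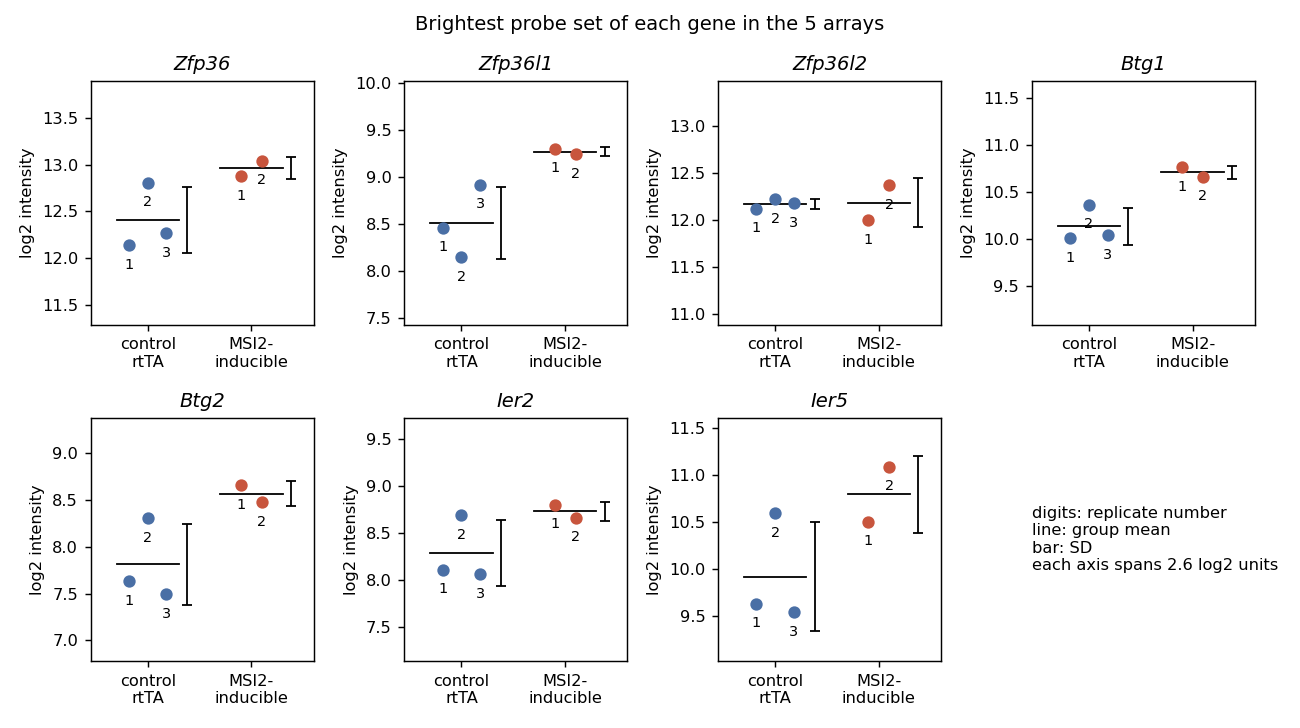
Log2 intensity of the brightest probe set of each of the 7 genes in the 3 control rtTA arrays (blue) and the 2 MSI2-inducible arrays (red), with replicate numbers, group means (lines) and SD (bars); every axis spans the same length. Control replicate 2 is the highest control array in every panel but that of Zfp36l1, where it is the lowest.

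Zfp36, which shortens the life of cytokine mRNAs, lay at 12.14, 12.80 and 12.27 in the control arrays, given here and throughout in replicate order, and at 12.88 and 13.04 in the MSI2-inducible ones. The groups did not overlap, but control replicate 2 came within 0.07 of the lower MSI2-inducible array. The means were 12.40 ± 0.35 (SD, n = 3) and 12.96 ± 0.12 (SD, n = 2), a 1.47-fold difference in intensity (log2 difference 0.56, 95% interval -0.05 to 1.16, limma adjusted p 0.907).

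Zfp36l1 is a relative known to act in lymphocyte development together with Zfp36l2. It lay at 8.46, 8.14 and 8.92 in control and at 9.30 and 9.24 in the MSI2-inducible arrays. Its MSI2-inducible arrays were 0.06 apart, the control arrays spanned 0.77, and here control replicate 2 was the lowest array. The log2 difference was 0.76 (1.70-fold, 95% interval 0.13 to 1.40, limma adjusted p 0.870). The gene's other probe set, which was dim, lay at 4.52, 4.23 and 5.16 in control and at 4.23 and 4.82 in MSI2-inducible arrays, with a difference of -0.11. The groups overlapped in it. Its mean signal was below the all-probe-set median, so the size of its difference is uncertain. With the mean of both probe sets the gene differed by 0.33.

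Zfp36l2, the family member tied to definitive stem cells, had the smallest SD of the 7 over the 5 arrays (0.14). Its MSI2-inducible arrays were 0.37 apart, however, more than in any other member but Ier5. Its brightest probe set lay at 12.12, 12.22 and 12.18 in control and at 12.00 and 12.37 in MSI2-inducible arrays, which bracket the control arrays from both sides. The difference of 0.01 had a 95% interval of -0.45 to 0.47 (limma adjusted p 0.999). The 2 other probe sets of Zfp36l2 lay at 10.20, 10.16 and 10.29 against 10.45 and 10.29, and at 7.14, 7.54 and 6.71 against 7.04 and 7.19. Their differences were 0.16 and -0.01, and the groups overlapped in both. Whether the family members differ from one another in this contrast was not tested. The direction of Zfp36l2 is not settled: it was -0.02 with quantile normalization once more or without control replicate 1, and -0.18 without MSI2-inducible replicate 2.

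Btg1, a binding partner of the deadenylase, had 3 probe sets, and in each both MSI2-inducible arrays lay above every control array. The brightest lay at 10.01, 10.37 and 10.04 in control and at 10.76 and 10.67 in MSI2-inducible arrays, so that the nearest arrays of the groups were 0.30 apart. The difference was 0.58 (1.49-fold, 95% interval 0.11 to 1.04, limma adjusted p 0.870). The others lay at 9.996, 10.33 and 10.15 against 10.73 and 10.60, and at 7.39, 8.19 and 7.72 against 8.29 and 8.33. They differed by 0.51 and 0.54 in the fit of all probe sets (limma adjusted p 0.853 and 0.893).

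Btg2, its p53-inducible relative, lay at 7.63, 8.30 and 7.49 in control and at 8.66 and 8.47 in MSI2-inducible arrays. Control replicate 2 was again the highest control array, 0.17 below the lower MSI2-inducible array. The difference was 0.76 (1.69-fold, 95% interval 0.06 to 1.45, limma adjusted p 0.880). The second Btg2 probe set differed by 0.74 without overlap, but ordered the control arrays otherwise, at 8.08, 7.23 and 7.69 in control against 8.67 and 8.14 in MSI2-inducible arrays. Whether control replicate 2 has high or low Btg2 thus differs between the 2 probe sets.

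Ier2, a nuclear early response protein with a single probe set, lay at 8.11, 8.69 and 8.06 in control and at 8.80 and 8.66 in MSI2-inducible arrays. Control replicate 2 lay between the MSI2-inducible arrays, so the groups overlapped. The difference was 0.44 (95% interval -0.16 to 1.05, limma adjusted p 0.912).

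Ier5 had the highest difference and the widest spread of the 7. Its brightest probe set lay at 9.63, 10.59 and 9.53 in control and at 10.50 and 11.09 in MSI2-inducible arrays, with control replicate 2 again between them. The difference was 0.88 (1.84-fold, 95% interval -0.06 to 1.81, limma adjusted p 0.903). The other Ier5 probe sets lay at 6.30, 6.48 and 6.08 against 7.03 and 6.02, and at 5.35, 5.64 and 6.13 against 5.08 and 5.46. Their differences were 0.23 and -0.44 with overlapping groups, and the latter was under the median of all probe sets. The mean of the 3 gave 0.23 (limma adjusted p 0.937).

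Over all 15 probe sets, 12 had a higher mean in MSI2-inducible arrays and 3 a lower one. That share was not computed over all probe sets. Over all genes, each read by its brightest probe set, it was 50.3%. In 7 both MSI2-inducible arrays lay above every control array, against 9.26% of 45037 probe sets. No probe set of the members passed limma over all probe sets, where 0.00444% passed as higher, and 4 of the 15 were higher at an unadjusted p under 0.05, against 2.87% of all probe sets. Those 7 probe sets read 4 genes, so they are not independent of one another.

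**Figure D2:**
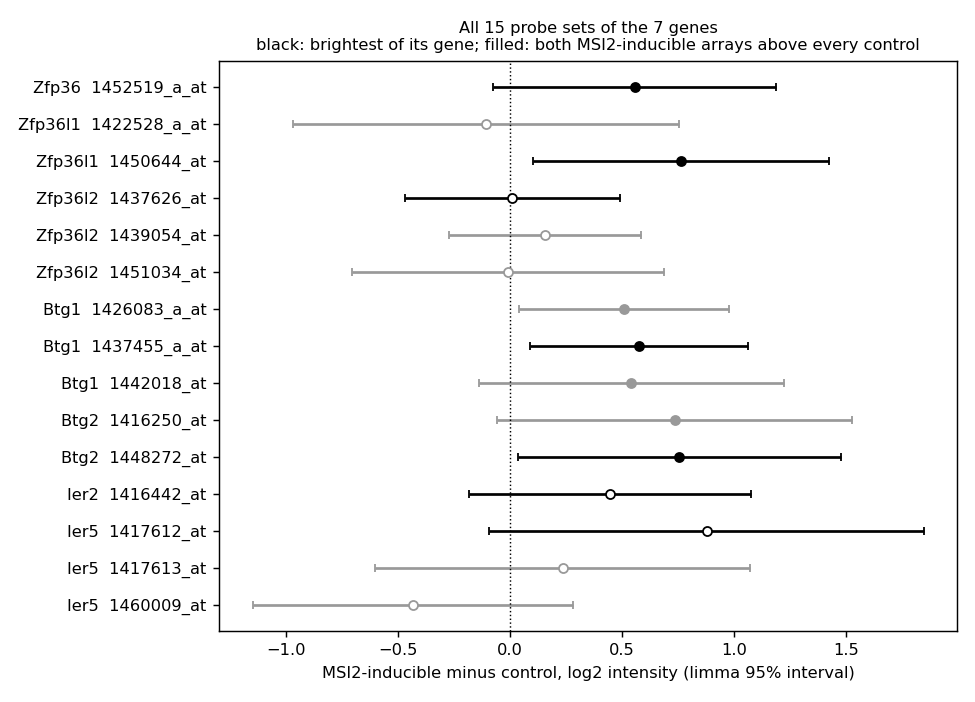
MSI2-inducible minus control difference in log2 intensity for each of the 15 probe sets, with limma's 95% interval; black marks the brightest probe set of a gene and filled points have both MSI2-inducible arrays above every control array. The 3 Btg1 and both Btg2 probe sets sit to the right of 0, whereas those of Ier5 run from 0.88 to -0.44.

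The members fell into patterns over the arrays. Zfp36, Btg1 and Ier2 were the most alike: centred on their own means, they differed by a root mean square of 0.12 to 0.13 log2 units over the 5 arrays in each pair. Btg2 was 0.16 to 0.18 from these 3. Zfp36l1, with control replicate 2 as its lowest array, was 0.36 to 0.63 from each other member. Control replicate 2 was the highest control array in 6 of 7 members, in 28 of 35 other immediate early genes and in 39.4% of all genes. For Btg2 this rests on its brightest probe set. In its second probe set control replicate 2 was the lowest array (7.23), so the Btg2 values that follow depend on the probe set. Set against control replicates 1 and 3 alone, Ier5 differed by 1.21, Btg2 by 1.003, Zfp36 by 0.76, Btg1 by 0.69, Ier2 by 0.65, Zfp36l1 by 0.58 and Zfp36l2 by 0.03. Against control replicate 2 alone the same means differed by 0.20, 0.26, 0.16, 0.35, 0.04, 1.13 and -0.04. Without control replicate 2, 6 members lay above both remaining control arrays, against 16.7% of all genes, and limma adjusted p-values of the members still lay above the threshold.

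The genes whose centred values over the 5 arrays were nearest to a member's were named for each. For Btg1 they were Dnajc27, Dusp1 and Myh7b, and Dusp1, an early response phosphatase that inactivates MAP kinases, was 0.06 away. For Btg2 they were H3f3a, Fos and Wipi1, with the AP-1 subunit Fos 0.09 away. For Zfp36 they were Clstn1, Arf4 and Mirt1 (0.05 to 0.07), for Zfp36l1 Ttc8, Tmed2 and Pgpep1 (0.07 to 0.10), for Ier2 Kcnt1, Lrrc20 and Clpb (0.05 to 0.09) and for Ier5 Gdap10, Ddx51 and Zbtb40 (0.13 to 0.14). For Zfp36l2 they were Mapk14, Atp5b and Pcmt1 (0.01 to 0.02), and Mapk14 encodes the p38 kinase that signals to Zfp36. With 5 arrays and 18193 genes such neighbours are easily found. With the mean of probe sets 2 of the 21 were shared, and with an array left out 1 to 5.

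Of the relatives Tob1, Tob2, Btg4 and Ier5l, 3 had a higher mean in MSI2-inducible arrays and 1 lay above every control array. The shares of all genes were 50.3% and 9.27%. Tob1, an antiproliferative protein of the Btg family, lay at 5.72, 5.49 and 5.80 in control and at 6.43 and 6.23 in MSI2-inducible arrays. The groups did not overlap, with a difference of 0.67 (limma adjusted p 0.792), but a second, dim Tob1 probe set differed by -0.01. Tob2 differed by 0.23, Btg4 by 0.33 and Ier5l by -0.32, all with overlapping groups, and Btg4 and Ier5l were dimmer than the median probe set.

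The decay machinery that these proteins call on showed no shared direction in its means. Of the 48 genes in the 2 lists that follow, 21 had a higher and 27 a lower mean. Among them 7 lay below every control array in both MSI2-inducible arrays and 1 above, against 9.39% and 9.27% of all genes. Of 17 genes of the CCR4-NOT complex and other deadenylases, 8 had a higher and 9 a lower mean in MSI2-inducible arrays, with a median difference of -0.01 and a range of -0.38 to 0.24. By limma 0 passed over all genes, 0 reached an unadjusted p under 0.05, and 3 lay below every control array, against 9.39% of genes. Those 3 were Cnot6, a catalytic deadenylase subunit, at -0.38, Pan2, the nuclease of another deadenylase, at -0.23 and Parn, the poly(A)-specific ribonuclease, at -0.22 (limma adjusted p 0.911 to 0.925). The 4 probe sets of Cnot6 ran from -0.38 to 0.31. Cnot10, another subunit, differed by -0.28 with overlapping groups (limma adjusted p 0.922), and its 4 probe sets ran from -0.58 to 0.43. Of 31 decapping and decay enzymes, 13 were higher and 18 lower, with a median of -0.06, and 0 passed limma over all genes. In that list 4 lay below every control array, Edc3, Ttc37, Ddx6 and Patl1, and 1 lay above (9.39% and 9.27% of all genes). The decapping enhancer Edc3 lay at 9.39, 9.14 and 9.52 in control and at 8.82 and 8.79 in MSI2-inducible arrays, without overlap (difference -0.54, limma adjusted p 0.870). The exosome cofactor Ttc37 differed by -0.56, but by -0.09 in its other probe set and by -0.33 as the mean of both. Edc3 and Ttc37 were the 2 genes of that list at an unadjusted limma p under 0.05, both lower (2.77% of all genes). The decapping activator Ddx6 differed by -0.36 and Patl1 by -0.32, and their dimmer probe sets did not all show it (-0.54 to 0.07 for Ddx6, 0.30 for Patl1).

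Other RNA-binding proteins of decay elements had a median of -0.07 over 13 genes, 5 higher and 8 lower. Zc3h12a (Regnase-1), an early response endonuclease of cytokine mRNAs, lay at 5.63, 5.88 and 5.83 in control and at 7.66 and 6.75 in MSI2-inducible arrays. Its groups did not overlap (difference 1.42, limma adjusted p 0.554), but its second probe set differed by 0.02. Among 13 kinases, phosphatases and 14-3-3 genes known to act on Zfp36, the median was 0.03, with 9 higher and 4 lower. Dusp1, the phosphatase that turns off p38 signalling to Zfp36, was the 1 at an unadjusted limma p under 0.05. Of all genes, 2.87% were higher at that p. Dusp1 had a difference of 0.60 (limma adjusted p 0.870).

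Other immediate early genes, from a list of 35 that holds no member, had a median difference of 0.75. Of these 32 had a higher mean in MSI2-inducible arrays (50.3% of all genes), and 22 lay above every control array (9.27% of all genes). The list was chosen with earlier results of these data known, so these counts are no independent evidence. By limma 0 passed over all genes and 18 were higher at an unadjusted p under 0.05 (2.87% of all genes). The smallest p-values belonged to the transcription factors Egr2 (difference 2.17), Nr4a1 (2.74) and Maff (1.99), to Ier3 (1.27), to the NF-kappaB regulators Nfkbiz (1.73), Tnfaip3 (1.86) and Nfkbia (1.16), and to the G protein regulator Rgs1 (0.88), with limma adjusted p of 0.128 to 0.616. The 3 probe sets of Nfkbiz disagreed, at 1.73, 0.60 and -0.20, whereas all 5 of Nfkbia were higher without overlap. Egr2 was dim in control arrays, with a mean of 4.56, so its size is uncertain. A further list, of 23 genes often reported to respond to cell isolation, shares 4 genes with the members (Zfp36, Btg1, Btg2 and Ier2). Of its other genes, 11 are in the early list just described, so it is no separate evidence, and 3 are among the partners of Ier5 and the Btg proteins. The 8 that are neither members nor in the early list each had a higher mean, with a median of 0.39, and 4 lay above every control array (9.27% of all genes).

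Of 32 mRNAs known in the literature as targets of Zfp36 proteins, 25 had a higher and 7 a lower mean in MSI2-inducible arrays, with a median of 0.54. Of all genes, 50.3% had a higher mean. By limma 0 passed over all genes, and 13 were higher and 1 lower at an unadjusted p under 0.05, against 2.87% and 2.77% of all genes. In all 15 lay above every control array, against 9.27%. This list, too, was chosen with earlier results of these data known. With genes dimmer than the median probe set left out, fewer targets were measured and 15 had a higher mean. The brighter targets with a lower mean were Ccnd1 (-0.58), Notch1 (-0.24) and Bcl2 (-0.14), so the smaller count is not a smaller share. Cxcl2, a neutrophil chemokine, lay at 5.37, 6.07 and 5.39 in control and at 9.35 and 8.27 in MSI2-inducible arrays, with a difference of 3.20 (limma adjusted p 0.195). The chemokines Ccl3 (1.58) and Ccl4 (1.02), the kinase Plk2 (1.53), the prostaglandin synthase Ptgs2 (1.22) and the cytokine Lif (0.60) were likewise above every control array, as were Ier3 and Nfkbiz from the early list (limma adjusted p 0.279 to 0.870). Ptgs2 and Lif were dim in control, with means of 4.91 and 4.66, so their sizes are uncertain. The second probe sets of Ptgs2 and Plk2 differed by 0.62 and 0.18, with overlapping groups in both. The list holds 5 genes of the early list and Zfp36 itself. Without these 26 remained, with 19 higher, 7 lower and a median of 0.45. As a deviation from the control mean, the list's median was 0.76 in MSI2-inducible replicate 1 and 0.13 in replicate 2, against -0.04, 0.18 and -0.14 in control, so the latter was not above every control array. Without replicate 1 the median difference was thus 0.13.

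**Figure D3:**
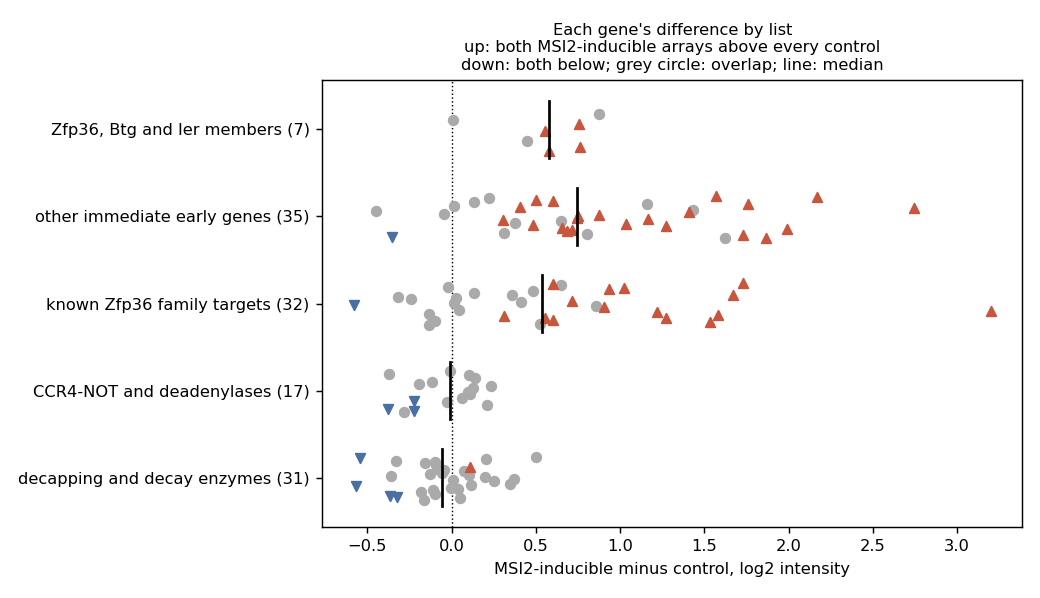
MSI2-inducible minus control difference in log2 intensity for each gene of 5 lists, with the number of genes in brackets, the list median (line) and triangles where the groups do not overlap. Members, other early genes and known targets sit mostly right of 0 (medians 0.58, 0.75 and 0.54), and the deadenylase and decay lists are centred near 0.

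Partners of Ier5 and the Btg proteins had a median of 0.17 over 10 genes, 7 higher and 3 lower, and 0 passed limma over all genes. The 3 at an unadjusted limma p under 0.05, each higher (2.87% of all genes), were chaperone genes known as HSF1 targets. Hspa1a lay at 5.73, 4.25 and 4.54 in control and at 10.21 and 8.18 in MSI2-inducible arrays (difference 4.36, limma adjusted p 0.360). Hspa1b differed by 3.85 and Hsph1 by 0.96, both without overlap and in each of their probe sets. Whether probe sets of Hspa1a and Hspa1b also read each other's transcripts was not tested, so their differences may not be independent. Dnajb1, another chaperone gene of the list, differed by 0.22 with overlapping groups (limma adjusted p 0.931). Its dimmer probe set differed by 1.23 without overlap. Control replicate 2 was the lowest array of Hspa1a. Hspa1a was dim in control, with a mean of 4.84 against the median of 5.57 over all probe sets, so the size of its difference is uncertain. HSF1's own gene was not analysed here.

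The members' medians, as deviations from the control mean, were 0.58 and 0.64 in the MSI2-inducible arrays against -0.18, 0.40 and -0.14 in control. Mature neutrophil markers, 10 of 12 measured, had medians of 2.23 and -1.04 in the MSI2-inducible arrays and of 0.35, -0.70 and 0.28 in the control arrays, and their mean level was 8.16 to 9.19 in control and 8.02 to 11.03 in MSI2-inducible arrays. Single members were further apart between the 2 MSI2-inducible arrays than their medians, by 0.59 in Ier5, 0.37 in Zfp36l2 and 0.06 to 0.18 in the others. Erythroid markers, 8 of 10 measured, had medians of 1.07 and 0.20 against 0.25, -0.31 and 0.02, and stem and progenitor genes, 10 of 12, of -0.46 and 0.13 against -0.09, -0.03 and 0.05. Monocyte and macrophage markers, 10 of 11, had 0.89 and -0.28 against -0.01, -0.02 and -0.03, and B cell markers, 8 of 9, 0.68 and -0.04 against 0.09, 0.01 and -0.07. Megakaryocyte and platelet markers, 6 of 8, had -0.54 and -0.28 against 0.25, -0.03 and -0.11, and endothelial and stromal markers, 8 of 8, -0.66 and -0.18 against -0.11, 0.08 and -0.08. In these last 2 lists the medians of both MSI2-inducible arrays lay below those of every control array. Granulocyte and monocyte progenitor genes, 9 of 10, had 0.68 and -0.39 against 0.54, -0.46 and 0.15. Mast cell, basophil and eosinophil markers, 8 of 8, had 0.05 and -0.46 against 0.52, -0.79 and 0.32, and T and NK cell markers, 8 of 10, 0.13 and -0.18 against -0.05, -0.14 and 0.00. The part of other cells in the members' values was not tested. In such bulk RNA, more cells with a transcript and more transcript per cell cannot be told apart.

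**Figure D4:**
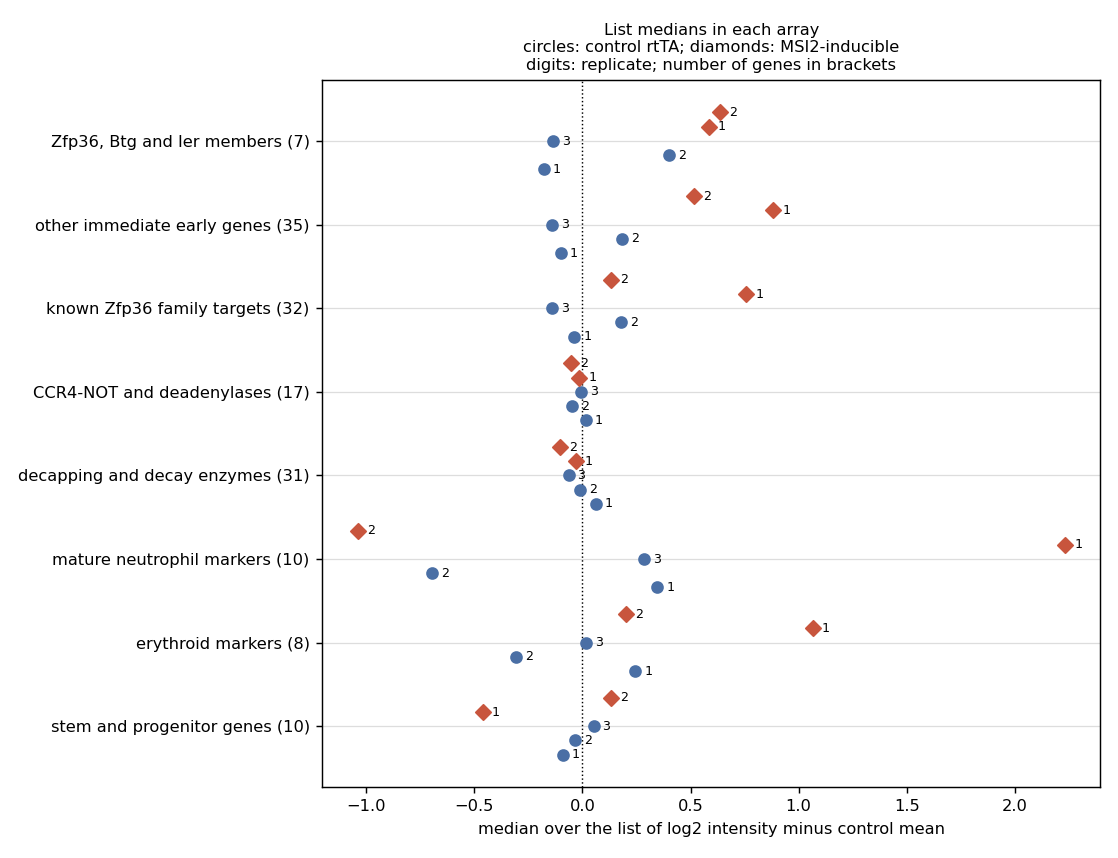
Median over each list of log2 intensity minus the control mean, in each array; circles are control rtTA and diamonds MSI2-inducible arrays, with replicate numbers. The MSI2-inducible arrays lie at 0.58 and 0.64 for the members and at 2.23 and -1.04 for neutrophil markers.

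RNA integrity, read as the 3' minus 5' log2 signal of control probe sets, did not separate the groups. For Gapdh it was 2.38 ± 0.23 (SD, n = 3) in control arrays and 2.22 in both MSI2-inducible arrays, and it was 2.601 in control replicate 2, the highest array (exact permutation p = 0.4, two-sided, over all assignments of the arrays). For beta-actin the difference was 0.03 (exact permutation p = 0.8). The smallest p this design allows is 0.1.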

How the data were processed

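The deposited values are intensities on a linear scale, 1 column per array, normalized between arrays by the authors; the submitters' processing notes list RMA, affy and R 2.11.0, with no role or order. The return from RMA's log scale and the genome build are not given in the sources used here. Array medians were 46.4 to 48.3. Log2 was taken with no pseudocount.

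Gene names came from the platform's annotation (34958 with 1 symbol, 932 with several, 9211 with none listed), with symbols updated by Entrez ID through RefSeq GRCm38.p6 (34754 matched). A gene's value is its brightest probe set, and probe sets were also fitted singly across all 45037 that are not controls. The comparison used limma 3.58.1 under R 4.3.3 (lmFit and eBayes, two-sided, Benjamini-Hochberg over all genes, threshold 0.05). The fit was tried on simulated data with independent noise and with shifts larger than the members' differences between the groups. Recovery of differences of the members' size was thus not tested. The 3 arrays against 2 limit precision. Alternatives changed the probe sets used, the pseudocount, the normalization, the variance model, the replicate block, the threshold and the arrays, and their effect is given with the other observations.

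Members and lists were chosen with earlier results of these data known. Named genes are the members, each member's 3 nearest genes and up to 4 genes of a list with the smallest p (8 for early genes and targets). Kit and Msi2 were looked at to check the labels. Nkg7, Ccnd1, Notch1 and Bcl2 are named because they went against their lists. Dnajb1 is named as a further chaperone gene of its list. Of a list, members with no value were not analysed here. Motifs were searched in 250 bases before RefSeq starts.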

Additional observations from a re-analysis of the deposited data

How the results depend on the processing

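Under 14 alternatives each, Zfp36, Zfp36l1, Btg1, Btg2, Ier2 and Ier5 kept their direction and none passed limma's test; ranges of their differences were 0.42 to 0.76, 0.33 to 0.97, 0.51 to 0.69, 0.60 to 1.003, 0.33 to 0.65 and 0.23 to 1.21. The low ends for Zfp36l1 and Ier5 came with the mean of probe sets. Zfp36l2 turned direction with quantile normalization once more (-0.0163) and ran from -0.18 to 0.19 with an array left out. Of all genes, 3 passed as higher, against 1 with a pseudocount of 16 or with array weights, and 1 passed as lower. For the latter it was 0 with every probe set on its own or the pseudocount, 2 with low values left out or renewed quantile normalization, and 3 at an adjusted p of 0.10. With an array left out 0 to 0 passed in each direction. With replicate number as a block 0 passed as higher and 0 as lower, and this fit sets control replicate 3, which has no partner, aside; members then differed by 0.01 (Zfp36l2) and, for the other 6, by 0.33 (Ier2) to 0.97 (Zfp36l1). Nothing in the labels pairs the arrays. Deviations of same-numbered arrays correlated at 0.134 and 0.0990 over genes, and those of replicates 1 and 2 crossed at -0.134 and -0.0990. With 2 MSI2-inducible arrays the deviations of each mirror those of the other, so these values cannot decide whether arrays are paired. Among single probe sets, the dimmest of Zfp36l2 turned with quantile normalization once more (0.00146) and with median centring (0.00961), and ran from -0.22 to 0.196 over left-out arrays. The dimmer one of Zfp36l1 turned with the replicate block (0.154) and ran from -0.41 to 0.189, and the second of Ier5 ran from -0.27 to 0.74. With an array left out, the median of Ier5 and Btg partners ran from -0.0308 to 0.369, that of neutrophil markers from -1.04 to 2.23, and Ier5l from -0.70 to 0.0646. The cause was not tested. A lone MSI2-inducible array takes its spread from the control arrays. Signal near the floor limits the dim probe sets.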
